A study of Bombyx mori with 9 samples.

Results

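The small heat shock protein genes Hsp20.1, Hsp20.4, Hsp20.8, Hsp21.4 and Hsp23.7 of the silkworm Bombyx mori were described across 3 strains. The 5 genes were chosen by their names in the count table, not by their values, and are 5 of the 16674 genes listed there. RNA was sequenced from the whole silk glands of larvae taken on day 3 of the fifth instar and frozen before dissection, with 1 larva per library and 3 libraries per strain. LAT51 came from the Cordillera site (CAR), at an ambient temperature of 23.9 °C. MO204 and DMMMSU119 came from the Misamis Oriental site (TCMO), at 31.7 °C, where the relative humidity was also higher. LAT51 and MO204 were classed as priority strains by the rearing facilities, and DMMMSU119 as a poorly performing strain. No larva was given a treatment. No other CAR strain is in the count table, so the site, its temperature and humidity, and the strain cannot be told apart. Libraries are given below in the order of their numbers, which are 1, 2 and 4 for LAT51, 1, 3 and 4 for MO204, and 0, 2 and 4 for DMMMSU119.

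Small heat shock proteins are chaperones that share an alpha-crystallin domain and work without ATP. They bind proteins that are losing their fold and hold them soluble until chaperones of the Hsp70 family, with their DnaJ partners, refold them. In insects many of their genes are switched on by the heat shock factor Hsf when cells are stressed by heat, while others are expressed without stress. The silk gland secretes very large amounts of fibroin and sericin in the fifth instar. No sequence of these genes is shown, since none was among the files read.

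Depth was between 4527847 and 11641130 reads counted on genes per library. Expression is given as CPM, the count of a gene scaled to a common library size, with library sizes adjusted by edgeR's TMM factors. These factors were 0.42 to 0.59 in DMMMSU119, against 1.26 to 1.53 in LAT51 and MO204, so a value scaled by library size alone shifts between DMMMSU119 and the other strains. Genes with an adjusted p-value under 0.1 over the 7610 genes tested were called differentially expressed genes (DEGs). All 5 genes passed the filter on low counts, Hsp20.4 only through DMMMSU119. The labelled tissue was checked against its silk genes. FIBH, Fib-l, P25, Ser2 and Ser3 together took 12% to 18.3% of counts in LAT51 and 13.2% to 18.6% in MO204. In DMMMSU119 they took 21.7% to 32.3%. The sericin genes among them moved in opposite directions. Ser2 had 290294 to 702674 counts in LAT51, 200646 to 389611 in MO204 and 114869 to 137889 in DMMMSU119. Ser3 had 18 to 57 in LAT51, 134 to 578 in MO204 and 27516 to 123509 in DMMMSU119. Gene lists fixed as markers of other tissues also differed between strains. The fat body markers (8 genes) summed to 17.4 to 222 CPM, here without the TMM factors, in LAT51, 94.4 to 915 in MO204 and 1986 to 49918 in DMMMSU119. Among them the vitellogenin gene VG did not share this order, at 56 to 80 counts in LAT51, 0 to 68 in MO204 and 0 to 10 in DMMMSU119. The summed cuticle and trachea markers (197 genes) were at 1054 to 1830 in LAT51, 2322 to 5481 in MO204 and 18875 to 26468 in DMMMSU119, on the same scale. Of these genes, 128 to 148 had 0 counts in a given library. Whether the cuticle transcripts came from the gland itself or from other tissue was not tested. Muscle markers (3 genes) stood out in MO204-3 and DMMMSU-0, at 727 and 6158 CPM without the factors. The haemocyte markers PPO1 and PPO2 summed to between 3.73 and 18.6 CPM without the factors in all 9 libraries. In these bulk samples, more RNA per cell and more cells of a type cannot be told apart.

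The 5 genes did not follow 1 pattern across the strains. Hsp20.1 was low in LAT51 and high in both TCMO strains. Hsp20.8 and Hsp20.4 were low in LAT51 and MO204 and high in DMMMSU119. Hsp23.7 was lower in LAT51 and in MO204 than in DMMMSU119, and Hsp21.4 was high everywhere with no difference past the threshold.

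**Figure D1:**
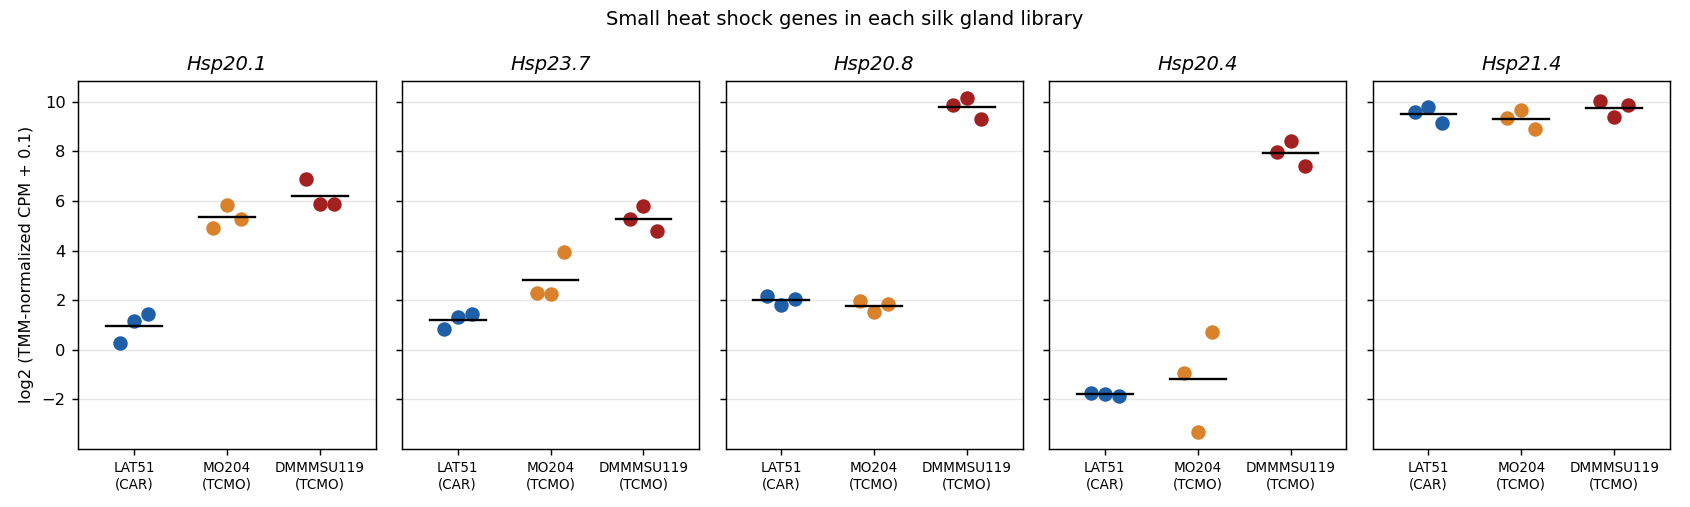
Expression of the 5 small heat shock genes in each library, as log2 of TMM-normalized CPM plus 0.1, with 1 point per library and a line at the strain mean. The LAT51 libraries lie lowest for Hsp20.1 (1.10 to 2.63 CPM), the DMMMSU119 libraries lie far above the others for Hsp20.8 (631 to 1151 CPM) and Hsp20.4 (172 to 339 CPM), and the strains overlap for Hsp21.4.

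Hsp20.1 separated LAT51 from both TCMO strains. The 3 LAT51 libraries were at 1.10, 2.13 and 2.63 CPM. MO204 was at 30.1, 57.6 and 38.5 CPM, and DMMMSU119 at 117, 59.4 and 59.0 CPM. Every LAT51 library thus lay below every TCMO library, with no overlap. In CAR vs. TCMO, Hsp20.1 was downregulated with a log2FC of -4.95 (SE 0.571, adjusted p = 0.00714, edgeR quasi-likelihood test). Of the 5 genes, it was the only DEG in that comparison, in which 1.48% of all genes tested were DEGs. The level was also lower in LAT51 than in MO204 alone (log2FC -4.44, SE 0.469, adjusted p = 0.00412), where 3.07% of genes were DEGs, and lower than in DMMMSU119 (log2FC -5.34, SE 0.486, adjusted p = 0.000467), where 38.0% were.

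The order of the TCMO strains for Hsp20.1 was less certain. MO204 lay below DMMMSU119 in every library (42.1 ± 14.1 and 78.4 ± 33.3 CPM, SD, n = 3 each), but the log2FC of -0.90 (SE 0.397) missed the threshold (adjusted p = 0.127, edgeR). Under scaling by library size alone the same difference was 0.45, with MO204 the higher strain. Per 1000 counts of RpL32, the ribosomal protein gene used as the reference in the qPCR of the study, Hsp20.1 had 0.883 to 1.18 counts in LAT51, 21.2 to 32.1 in MO204 and 10.4 to 29.0 in DMMMSU119. The TCMO strains overlapped on that scale, while LAT51 stayed below both.

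Hsp20.8 showed another pattern. LAT51 had 44, 53 and 23 counts and MO204 had 54, 17 and 32, but DMMMSU119 had 3361, 4671 and 3421. As CPM, it averaged 3.95 ± 0.491 in LAT51, 3.37 ± 0.552 in MO204 and 908 ± 262 in DMMMSU119 (SD, n = 3 each). The LAT51 and MO204 libraries overlapped, although they came from different sites, and every DMMMSU119 library was above them all. It was downregulated in LAT51 vs. DMMMSU119 (log2FC -7.84, SE 0.417, adjusted p = 1.99e-05, edgeR). It was also downregulated in MO204 vs. DMMMSU119, within the hot site (log2FC -8.06, SE 0.421, adjusted p = 1.68e-05), a comparison in which 33.0% of genes were DEGs. Between LAT51 and MO204 the log2FC was 0.22, with a 95% interval of -0.50 to 0.94 (adjusted p = 0.908).

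Hsp20.4 was likewise high in DMMMSU119. LAT51 had 2, 3 and 1 counts and MO204 had 6, 0 and 14, against 894, 1375 and 935 in DMMMSU119. As CPM these were 0.1997, 0.194 and 0.175 in LAT51, 0.427, 0 and 1.53 in MO204, and 251, 339 and 172 in DMMMSU119. The DMMMSU119 level over that of LAT51, from summed counts, was 1277-fold (95% counting interval 586 to 3483). Over that of MO204 it was 360.0-fold (233 to 590.1). These intervals cover counting error only, and the count of 0 in MO204-3 allows up to 3 counts at its depth. No p-value is given for these differences, since Hsp20.4 was among the genes tested only through its counts in DMMMSU119 and had to differ there. The difference between LAT51 and MO204 rested on 6 and 20 counts in all, and was not called (adjusted p = 0.470).

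In CAR vs. TCMO the TCMO group holds both strains, and neither gene was a DEG. Hsp20.8 had a log2FC of -6.85 (SE 2.39, adjusted p = 0.212, edgeR). The TCMO libraries ran from 2.76 to 1151 CPM for Hsp20.8 and from 0 to 339 CPM for Hsp20.4, and overlapped LAT51 for both genes. Hsp20.8 was called with a model of 1 mean per strain (log2FC -3.81, adjusted p = 0.000975, edgeR), in which 15.8% of genes were DEGs. It was also called with DESeq2's Wald test (-6.86, adjusted p = 0.000267), in which 9.86% were. The strain model sets LAT51 against the average of the TCMO strains. Its log2FC was 0.22 against MO204 and -7.84 against DMMMSU119, so both calls of Hsp20.8 rest on DMMMSU119. For Hsp20.4 the strain model gave -6.00 and DESeq2 -9.40, and its calls with both rest on the same DMMMSU119 counts.

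Hsp20.8 and Hsp20.4 lie next to each other in the gene table of the assembly ASM3026992v2, and their levels are uncertain for another reason. The locus LOC119630891 had 87.0% to 100% of the counts of Hsp20.8 in every library, 10889 against 11676 in all. The locus LOC119630892 had 85.7% to 117% of those of Hsp20.4 in the 8 libraries with counts, and both were at 0 in MO204-3, with 2982 against 3230 counts in all. Neither locus is in the gene table, so neither is given a name or a role. Whether reads were shared between near-identical copies was not tested. With the counts of each locus added to its partner, the log2FC of Hsp20.8 was -7.84 in LAT51 vs. DMMMSU119 and -8.05 in MO204 vs. DMMMSU119, and no call of any of the 5 genes changed. Each locus had nearly the counts of its partner in every library, so the sum had to leave fold changes much the same. It does not show whether shared reads affect the levels.

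**Figure D2:**
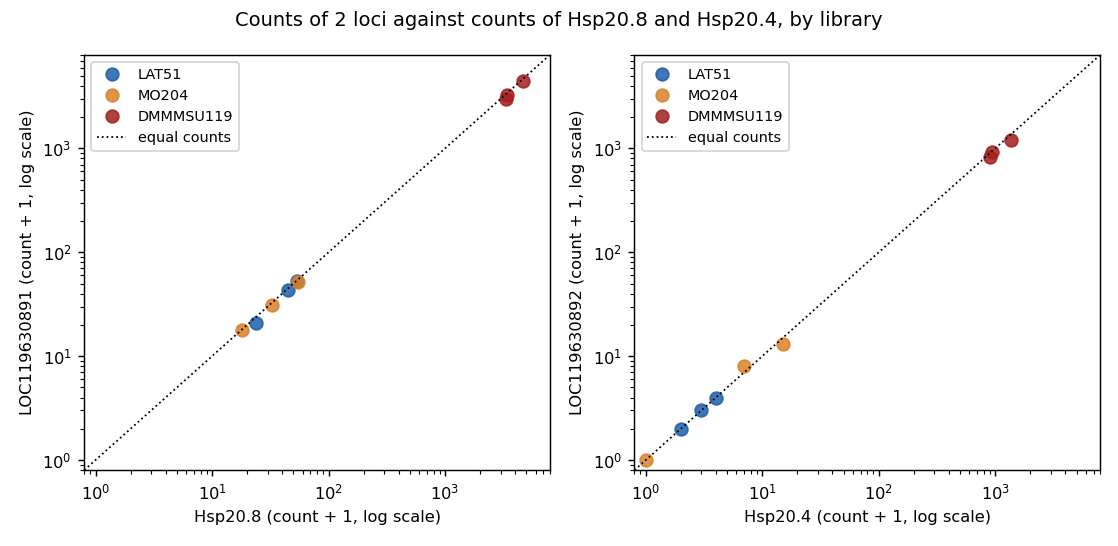
Counts of LOC119630891 against Hsp20.8 and of LOC119630892 against Hsp20.4, each plus 1 on log axes, with 1 point per library. All 9 libraries lie close to the dotted line of equal counts in both plots, from 0 counts in MO204-3 for Hsp20.4 to 4671 counts of Hsp20.8 in DMMMSU-2.

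Hsp23.7 had a stepped pattern. LAT51 was at 1.70, 2.39 and 2.63 CPM, MO204 at 4.77, 4.72 and 15.3 CPM, and DMMMSU119 at 38.4, 55.7 and 27.5 CPM. No strain overlapped another, and MO204-4 stood well above the other MO204 libraries. Hsp23.7 was downregulated in LAT51 vs. DMMMSU119 (log2FC -4.18, SE 0.544, adjusted p = 0.00186, edgeR) and in MO204 vs. DMMMSU119 (log2FC -2.29, SE 0.492, adjusted p = 0.0148). The second of these was -3.08 without MO204-4.

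For LAT51 vs. MO204 the log2FC of Hsp23.7 was -1.89 (SE 0.513, adjusted p = 0.118), and without MO204-4 it was -1.10 (adjusted p = 0.297). For CAR vs. TCMO it was -3.43 (SE 0.885, adjusted p = 0.15), and it was called without MO204-1 (adjusted p = 0.0709) or without MO204-3 (0.0941). Both missed calls depend on the test, since DESeq2 gave adjusted p-values of 0.0349 and 0.000951. The step between the TCMO strains depends on the scaling. Per 1000 RpL32 counts Hsp23.7 was at 2.63 to 8.45 in MO204 and 7.23 to 9.80 in DMMMSU119, with MO204-4 inside the DMMMSU119 range, and with library size alone the log2FC of MO204 vs. DMMMSU119 was -0.86 (adjusted p = 0.109). In the gene table Hsp23.7 is the neighbor of Hsp20.1. It had 1.55, 1.12 and 1.0 counts per count of Hsp20.1 in LAT51, 0.158, 0.0819 and 0.398 in MO204, and 0.329, 0.938 and 0.4656 in DMMMSU119. LAT51 was above MO204, and the TCMO strains overlapped. The order of LAT51 and DMMMSU119 is uncertain, since LAT51-4 had only 15 counts of each gene and DMMMSU-2 had 226 against 241.

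Hsp21.4 was expressed in every library at 482 CPM or more. LAT51 was at 765, 891 and 569 CPM, MO204 at 660, 811 and 482 CPM, and DMMMSU119 at 1041, 681 and 941 CPM. All strains overlapped. The log2FC was -0.05 in CAR vs. TCMO (95% interval -0.83 to 0.72, adjusted p = 0.95), 0.19 in LAT51 vs. MO204 (adjusted p = 0.924), -0.26 in LAT51 vs. DMMMSU119 (-0.98 to 0.46, adjusted p = 0.579) and -0.45 in MO204 vs. DMMMSU119 (-1.17 to 0.28, adjusted p = 0.332). The intervals leave room for changes of up to about 1 log2 unit, so Hsp21.4 was not shown to be equal between strains. Under scaling by library size alone, Hsp21.4 was called higher in LAT51 than in DMMMSU119 (log2FC 1.09, adjusted p = 0.0257) and higher in MO204 than in DMMMSU119 (0.92, adjusted p = 0.0497). That scaling moved the median of all genes to 1.39 and 1.43 in these comparisons, so relative to the typical gene Hsp21.4 was again not higher.

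**Figure D3:**
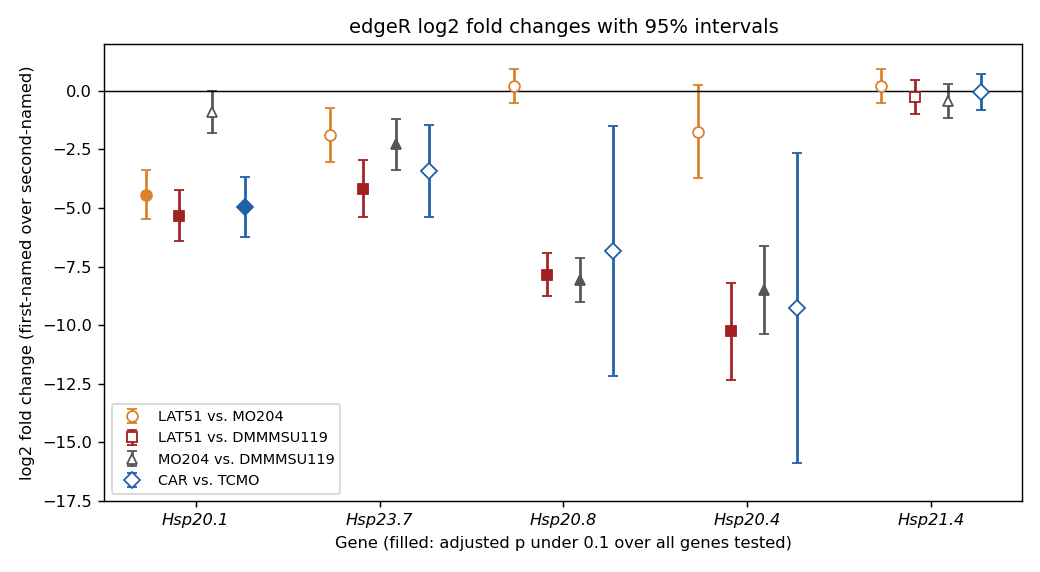
Log2FC of each gene in the 4 comparisons with its 95% interval from edgeR, the first-named group over the second. Filled symbols mark DEGs. Hsp20.1 is at -4.44 against MO204 and -5.34 against DMMMSU119, Hsp20.8 is near 0 against MO204 (0.22) and at -7.84 against DMMMSU119, and every Hsp21.4 interval includes 0. The fitted values of Hsp20.4 rest on at most 3 counts in each LAT51 library.

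Counted together, 1 of the 5 genes was a DEG in CAR vs. TCMO, 1 in LAT51 vs. MO204, 4 in LAT51 vs. DMMMSU119 and 3 in MO204 vs. DMMMSU119, all in the downregulated direction. The share of all tested genes that were downregulated DEGs was 0.775%, 1.56%, 19.8% and 16.7% in the same comparisons. Hsp20.4 is among the 4 and the 3, and without it 3 and 2 of the other 4 genes were DEGs there. In LAT51 vs. DMMMSU119 scaling by library size alone gave 4 lower and 1 higher (Hsp21.4), against 7.50% lower and 66.8% higher of all genes tested. In MO204 vs. DMMMSU119 it gave 2 lower (Hsp20.4 and Hsp20.8) and 1 higher (Hsp21.4), against 4.97% and 68.1%. The groups did not overlap, with the first-named below, in 2 of the 5 genes in CAR vs. TCMO, 2 in LAT51 vs. MO204, 4 in LAT51 vs. DMMMSU119 and 4 in MO204 vs. DMMMSU119, against 4.47%, 9.57%, 19.9% and 18.9% of all genes tested. Without Hsp20.4 these were 2, 2, 3 and 3 of 4 genes. The median log2FC of the 4 genes other than Hsp20.4 was -4.19, -0.85, -4.76 and -1.59 in these comparisons, against -0.04, -0.01, 0.01 and 0.03 over all genes tested. The comparisons share libraries, and so are not independent.

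Ratios of counts within a library do not depend on the scaling between libraries. Hsp20.8 had 4.0, 1.61 and 1.53 counts per count of Hsp20.1 in the LAT51 libraries, 0.128, 0.0480 and 0.0909 in MO204, and 8.06, 19.4 and 10.7 in DMMMSU119. The ratio was lowest in MO204, where Hsp20.1 was high and Hsp20.8 was not, and highest in DMMMSU119. Per count of Hsp21.4, Hsp20.8 had 0.00574, 0.00384 and 0.00708 counts in LAT51 and 0.00582, 0.00341 and 0.00727 in MO204, against 0.905, 1.69 and 0.670 in DMMMSU119. The strains LAT51 and MO204 overlapped again. Hsp20.1 had 0.00144, 0.00239 and 0.00462 counts per count of Hsp21.4 in LAT51, 0.0456, 0.0709 and 0.0800 in MO204, and 0.112, 0.0872 and 0.0627 in DMMMSU119, with LAT51 below both and the TCMO strains overlapping.

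**Figure D4:**
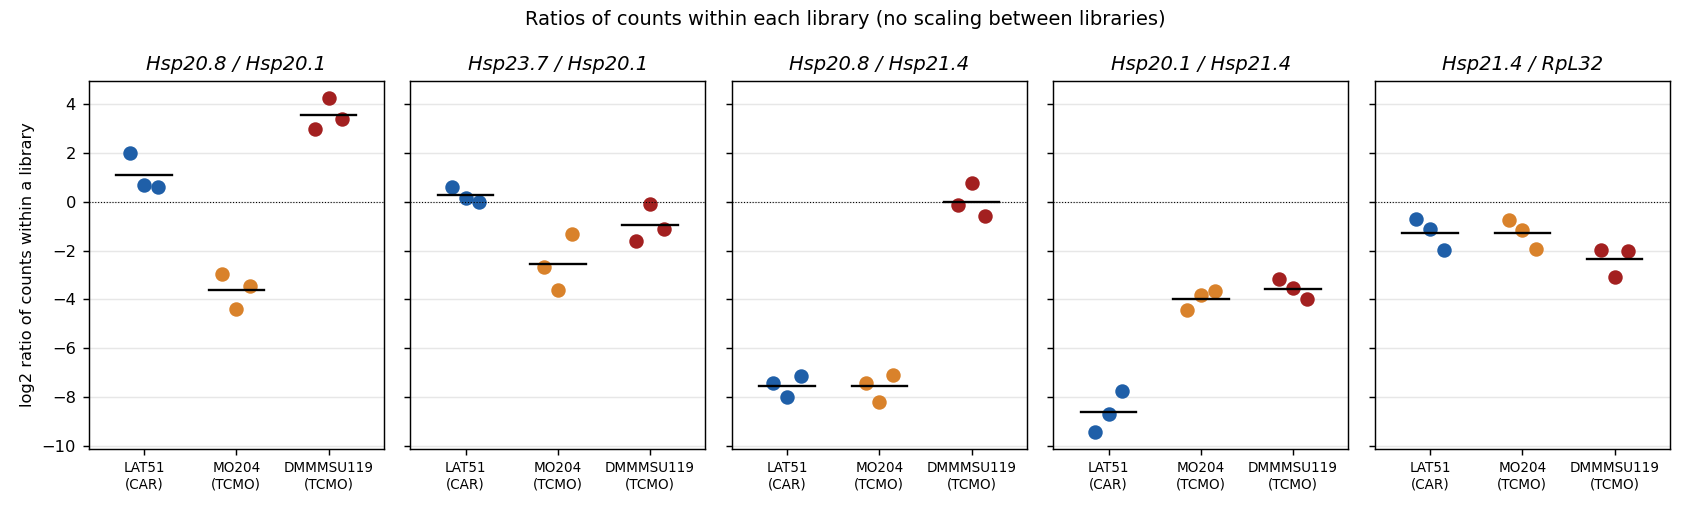
Log2 ratios of counts within each library for 5 pairs of genes, with 1 point per library and a line at the strain mean. Hsp20.8 per Hsp20.1 is lowest in MO204 (0.0480 to 0.128) and highest in DMMMSU119 (8.06 to 19.4), and Hsp20.1 per Hsp21.4 is lowest in LAT51 (0.00144 to 0.00462).

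The spread among the DMMMSU119 libraries is given here for the tissue markers and for the small heat shock genes. Over these libraries, the fat body markers ranged 24.5-fold as summed CPM and the muscle markers 946-fold, with DMMMSU-0 highest for both. Hsp20.8 ranged 1.82-fold, Hsp20.4 1.97-fold and Hsp23.7 2.03-fold, and DMMMSU-2 was highest for all of them as TMM-scaled CPM. That rank depends on the scaling. Per 1000 RpL32 counts DMMMSU-0 was above DMMMSU-2 for Hsp20.8 (234 against 202) and Hsp20.4 (62.2 against 59.6). For Hsp23.7 DMMMSU-2 was still the higher (9.80 against 9.53). Hsp20.1 ranged 1.98-fold and was highest in DMMMSU-0, at 117 CPM. The cuticle and trachea markers ranged 1.25-fold. The part of any of these tissues in the higher level of the 4 genes in DMMMSU119 was not tested. A further fit left out DMMMSU-0, MO204-3 and MO204-4, in which muscle, fat body or heat shock genes stood apart. In it the log2FC of Hsp20.8 was -7.84 in LAT51 vs. DMMMSU119 and -7.86 in MO204 vs. DMMMSU119, the second resting on MO204-1 alone. That of Hsp20.1 was -4.69 in CAR vs. TCMO (adjusted p = 0.0398), and Hsp20.4 did not pass the filter on low counts.

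The other genes of the heat shock response were read from a list of 33 genes with heat shock, Hsc70, DnaJ or Hsf symbols, of which 31 were tested. No chaperonin was found by symbol. None of the 31 was a DEG in CAR vs. TCMO or LAT51 vs. MO204 with edgeR, with 4 and 2 at an unadjusted p under 0.05. DESeq2, which tested 33 and 32 of them, gave 3 and 2 DEGs, all lower, where 9.86% and 5.68% of all genes were DEGs. In LAT51 vs. DMMMSU119, 7 were higher and 5 lower, against 18.2% and 19.8% of all genes, and in MO204 vs. DMMMSU119, 7 were higher and 3 lower, against 16.3% and 16.7%. Taken in both directions, these shares were close to the 38.0% and 33.0% of all genes, so they are no result about the list. The 5 lower genes include LOC733093 and Hsp70, which passed the filter on low counts only through DMMMSU119 and MO204-4. Under scaling by library size alone the counts were 24 higher and 3 lower, and 24 higher and 1 lower, where most genes tested were also higher (66.8% and 68.1%). The median log2FC of the list was 0.10, -0.00, 0.37 and 0.47 in CAR vs. TCMO, LAT51 vs. MO204, LAT51 vs. DMMMSU119 and MO204 vs. DMMMSU119.

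Hsp19.9, the further small heat shock gene in the list, was uneven within MO204. LAT51 had 165, 150 and 84 counts, MO204 had 117, 37 and 1084, and DMMMSU119 had 266, 578 and 578. It was downregulated in LAT51 vs. DMMMSU119 (log2FC -2.99, SE 0.991, adjusted p = 0.0497), with no other call. MO204-4, at 118.7 CPM, lay within the DMMMSU119 range of 74.5 to 142 CPM, while MO204-1 and MO204-3 were at 8.33 and 6.02 CPM.

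Of 5 Hsp70 genes tested, 2 were higher and 3 lower in LAT51 vs. DMMMSU119, where 18.2% and 19.8% of all genes were. In MO204 vs. DMMMSU119, 2 were higher and 1 lower, where 16.3% and 16.7% of all genes were. Hsc70-4, the constitutive Hsp70 chaperone of the cytosol in Drosophila, was lower in LAT51 (log2FC -2.59, adjusted p = 0.0049) and in MO204 (-2.83, adjusted p = 0.00549) than in DMMMSU119. HSP70, with the synonym grp78 for the chaperone of the endoplasmic reticulum, was higher in LAT51 (1.02, adjusted p = 0.0480) and in MO204 (1.02, adjusted p = 0.0542) than in DMMMSU119, and so was Hsp70-14 (1.28 and 1.23). The other 2 lower calls in LAT51 were of genes named after their values were seen. LOC733093, with the synonym BmHsp70, had 2, 0 and 1 counts in LAT51 and 4, 4 and 219 in MO204, against 134, 524 and 103 in DMMMSU119. Hsp70 had 1, 0 and 0 counts in LAT51 and 0, 2 and 48 in MO204, against 22, 83 and 22 in DMMMSU119. Both passed the filter only through DMMMSU119 and MO204-4, and so no p-value is given. Hsp90, a chaperone of signaling proteins, was higher in LAT51 than in DMMMSU119 (1.17, adjusted p = 0.0313). HSFd, listed as a heat shock factor gene, averaged 30.8 ± 12.7 CPM for LAT51, 28.8 ± 10.2 for MO204 and 46.3 ± 17.8 for DMMMSU119 (SD, n = 3 each), with no call. Of 23 DnaJ genes tested, which encode partners of Hsp70, 4 were higher and 1 lower in LAT51 vs. DMMMSU119, a smaller share than the 38.0% of all genes. With library size alone 21 were higher and 0 lower, where 66.8% and 7.50% of all genes were. DnaJ-3 was the most abundant of them, at 155 ± 18.98 CPM in LAT51 and 50.5 ± 20.2 CPM in DMMMSU119 (log2FC 1.62, adjusted p = 0.0149).

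Library MO204-4 held more of several heat shock transcripts than the other MO204 libraries. Of the genes described here, Hsp23.7 (140 against 67 and 29 counts in MO204-1 and MO204-3), Hsp20.4 (14 against 6 and 0), Hsp19.9, Hsp70 and LOC733093 were highest there. HSP70 was also highest there, at 1059 CPM against 757 and 626, and so was DnaJ-3, at 136 CPM against 105 and 66.3. Hsp20.1 and Hsp20.8 did not share this, since MO204-4 was in the middle of the MO204 libraries for both, at 38.5 and 3.50 CPM. Hsc70-4, Hsp90 and Hsp70-14 were also in the middle there, at 2672, 800 and 52.7 CPM. Hsp21.4 was lowest there, at 482 CPM, and so was HSFd, at 17.6 CPM against 37.5 and 31.4. DnaJ-3 does not stand for its group. DnaJ-5 and DnaJ-1, the next most abundant DnaJ genes, were lowest in MO204-4, DnaJ-5 at 46.3 CPM against 59.9 and 56.9. The remaining DnaJ genes tested went both ways, with more of them lowest in MO204-4 than highest.

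**Figure D5:**
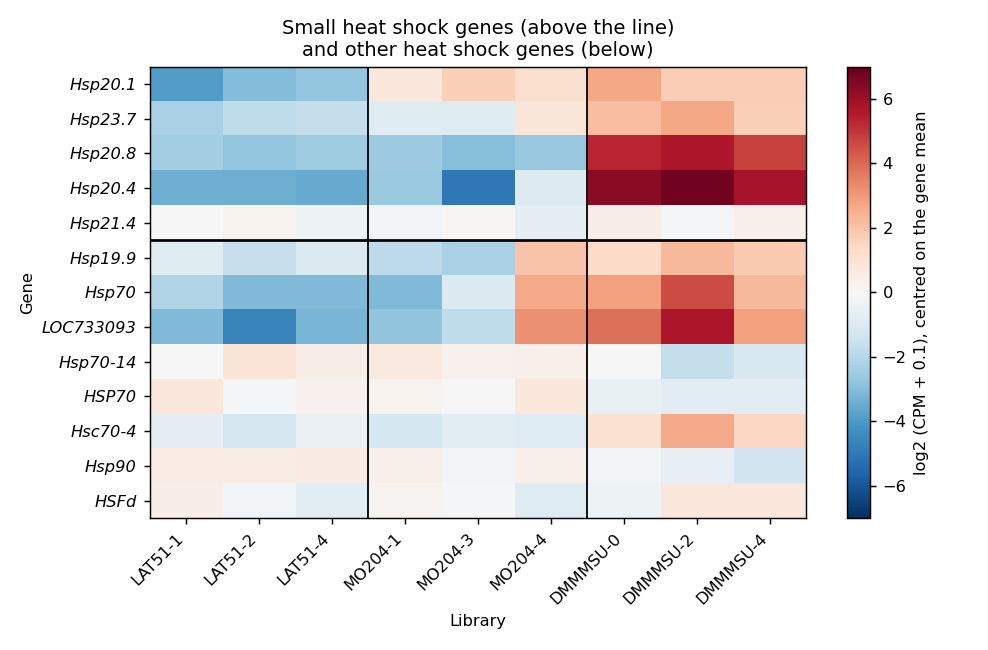
Log2 of TMM-normalized CPM plus 0.1, centred on the gene mean of all 9 libraries, for the 5 small heat shock genes (above the line) and 8 other heat shock genes. Red marks a value above the mean of the gene and blue a value below it. In MO204-4, Hsp19.9 (118.7 CPM), Hsp70 (5.25 CPM) and LOC733093 (24.0 CPM) are red as in DMMMSU119, while Hsp20.8 (3.50 CPM) is blue.

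The genes nearest to each small heat shock gene were ranked by the root mean square (RMS) difference of their centred log2 CPM over the 9 libraries, a description with no test. The nearest to Hsp20.1 were LOC101742375, LOC101740006 and LOC105841524 (RMS 0.79 to 0.82). For Hsp21.4 they were LOC692910, LOC119630978 and LOC101736389 (0.15 to 0.16), and for Hsp23.7 LOC105842089, LOC101737541 and LOC692954 (0.30 to 0.44). Hsp20.4 was nearest to LOC119630892 (0.10), LOC119630891 (0.86) and LOC101745023 (1.01), and Hsp20.8 to LOC119630891 (0.06), LOC101745820 and LOC110385715 (0.63 each). LOC101745820 had a mean of 18.1 CPM in LAT51, 29.99 in MO204 and 5558 in DMMMSU119. Among the 5 genes themselves, Hsp20.4 and Hsp20.8 were closest to each other (0.84), followed by Hsp20.1 and Hsp23.7 (1.29). Both of these pairs are neighbors in the gene table.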

How the data were processed

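Counts for 9 silk gland libraries were analysed. The deposited counts are whole numbers of reads per gene, made by the authors with HISAT and featureCounts 1.4.6-p5 without normalization. The submitters' processing notes also name fastp 0.20.0, HISAT2 2.1.0 and Trimmomatic 0.39. The kit was stranded. The study's methods name a RefSeq reference assembly for the STAR alignment, but none for the HISAT counts, and the strand setting is not given in the sources used here, so no coordinates are given. The deposited log2 values equal log2 of the count over a DESeq2 size factor, plus 1, and were used as an alternative with limma 3.58.1. The gene table of ASM3026992v2 matched 14504 of 16674 IDs and was used for synonyms and neighbors. No other gene in it overlaps the 5 genes.

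Counts were filtered with filterByExpr, scaled with TMM and tested with edgeR 4.0.16 in R 4.3.3 (quasi-likelihood F test, Benjamini–Hochberg over 7610 genes). CAR vs. TCMO used location as the only factor, and the strain contrasts used 1 mean per strain over all 9 libraries. SE values were taken from the F statistic. Counting intervals are exact at the 95% level. Tests were checked on simulated counts. DESeq2 1.42.0, other scalings and filters, each library left out, a replicate block and only 2 strains at a time were the alternatives, and 2 more were added after seeing the data. Figures were drawn with matplotlib 3.10.9.

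The 5 genes, the lists and the tests were chosen with earlier results of these data known. Named genes are the 5 genes, at most 3 per group of the heat shock list by mean CPM, and the 3 nearest patterns to each. LOC733093 and Hsp70 are exceptions, named after their values were seen. Replicates are separate larvae, and chi-square per degree of freedom between them was 52.1 to 227, so none repeated another. Gene counts do not separate PCR duplicates. Depth limits Hsp20.4 most, at 0 to 14 counts per library in LAT51 and MO204. GO terms, qPCR and assemblies were not analysed here.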

Additional observations from a re-analysis of the deposited data

Results flagged for a closer look

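As TMM-scaled CPM, Hsp20.1 in DMMMSU-0 lay far from the other TCMO libraries, at 117 against 59.4 in the next highest. The gap was 0.663 of the range of the 6 libraries. On other scales MO204-3 was above DMMMSU-0, at 32.1 against 29.0 per 1000 RpL32 counts. Without the TMM factors it was at 76.5 CPM against 68.8. Chance flags about 1 in 20 such groups. DMMMSU-0 also had the highest fat body and muscle markers, and the part of these in its Hsp20.1 level was not tested. Without it, the log2FC of Hsp20.1 in CAR vs. TCMO was -4.65 (adjusted p = 0.0118, edgeR).

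The differences of LAT51 from MO204 and from DMMMSU119 were unlike for 3 genes, and the difference between them, which equals MO204 vs. DMMMSU119, was tested with edgeR. It was -8.52 log2 units for Hsp20.4, -8.06 for Hsp20.8 and -2.29 for Hsp23.7. The value for Hsp20.4 is a description, since that gene passed the filter on low counts only through DMMMSU119. For Hsp23.7 it was not called under scaling by library size alone or by ribosomal protein genes. For Hsp20.1 and Hsp21.4 the same test missed the threshold.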

How the results depend on the processing

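Of 415 recomputed values of the 5 genes, 387 kept their direction and their side of the threshold, and 14 changed sign. The CAR vs. TCMO count of 1 DEG became 4 with DESeq2 and 4 with the 3-strain model, where 9.86% and 15.8% of genes were DEGs, and ran from 1 to 2 with each library left out. The 4 include Hsp20.4, which passed the filter only through DMMMSU119, and Hsp20.8, which was high only in DMMMSU119. The count was 2 without MO204-1 and without MO204-3, where 173 of 7426 and 89 of 7665 genes were DEGs. The count for LAT51 vs. MO204 became 2 with library size alone, ribosomal scaling and DESeq2, each adding Hsp23.7. Over all genes, 190 of 7610, 160 of 7610 and 476 of 8384 were DEGs with these. In LAT51 vs. DMMMSU119 the count stayed at 4 with each library left out. It was 5 with library size alone and ribosomal scaling, where 5657 and 5066 of 7610 genes were DEGs. The added gene was Hsp21.4, called higher in LAT51. In MO204 vs. DMMMSU119 the count stayed at 3 with each library left out. It was 2 with the replicate block, where 506 of 7610 genes were DEGs. With library size alone it was 3, Hsp21.4 being called higher in MO204, where 5559 genes were DEGs. Hsp20.4 is among the genes counted in both comparisons with DMMMSU119. It had to differ there, since it passed the filter only through DMMMSU119, so its calls do not show stability.

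The changes of sign were mostly of values near 0. Hsp21.4 in CAR vs. TCMO was 0.56 with library size alone, 0.43 with ribosomal scaling, 0.035 with no filter, 0.027 with a minimum of 10 counts in total, 0.058 with the replicate block, and between -0.19 and 0.10 with each library left out. With library size alone and ribosomal scaling, Hsp21.4 was 1.09 and 0.98 in LAT51 vs. DMMMSU119 and 0.92 and 0.95 in MO204 vs. DMMMSU119, and Hsp20.1 was 0.45 in MO204 vs. DMMMSU119 with each. These scalings moved the median of all genes in MO204 vs. DMMMSU119 to 1.43 and 1.47. Hsp23.7 in MO204 vs. DMMMSU119 was -0.86 and -0.81 with them and lost its call, as it did at -1.52 with the replicate block.

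Same-numbered libraries are different larvae, and their deviations correlated at -0.15 to 0.23 over 5 pairs, so the numbers do not pair the libraries. With the replicate block Hsp20.1 stayed a DEG in CAR vs. TCMO (-4.55, adjusted p = 0.0977, edgeR). The counts of DEGs among the 5 genes were then 1, 1, 4 and 2, against 2, 29, 1843 and 506 of 7610 genes. The 4 and the 2 include Hsp20.4. Hsp20.4 was removed by the filter without DMMMSU-0, MO204-3 and MO204-4, and in the LAT51 vs. MO204 fit of only 6 libraries. Its counts of 0 to 14 in LAT51 and MO204 set the depth limit.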
